A study of Bos taurus with 111 samples.

Results

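Muscle of a beef breed and a dairy breed was compared at the end of the first concentrate phase (H1), with Charolais (CH) steers set against Holstein-Friesian (HF) steers. Libraries were taken by their diet and breed labels, and 1 library with under 1000000 reads counted on genes was left out. This gave 38 of the 39 H1 libraries, out of 111 in the series, with 18 from CH and 20 from HF. Each library came from a different steer. The CH libraries were 8 of low residual feed intake (L-RFI) and 10 of high residual feed intake (H-RFI), and the HF libraries were 9 of L-RFI and 11 of H-RFI.

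The series followed castrated males of both breeds through 3 feeding phases, H1, zero-grazed grass (ZG) and a second concentrate phase (H2), each with a test of 70 d. RFI, the difference between the feed an animal ate and the feed predicted from its size and growth, was ranked within breed and phase, and the 12 most extreme steers of each class were selected. Biopsies were cut from M. longissimus thoracis et lumborum, the long muscle of the back, and polyadenylated RNA was sequenced. In H1 both breeds ate the same barley-based concentrate without limit, with a rationed amount of grass silage. At the start of the phase the herd of 90 CH steers averaged 283 d of age (SD 18.3) and 395 kg (SD 37.8), and the herd of 77 HF steers weighed 294 kg (SD 42.3) on average at an age of 306 d (SD 7.7). The CH steers were thus younger and heavier, and breed, age and body weight cannot be told apart in this comparison. Steers of middling RFI were not sampled, so each breed is represented by its RFI extremes.

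Skeletal muscle fibres differ in their myosin heavy chain, with slow and fast forms that set contraction speed and metabolism. Their protein mass follows the balance of growth signals such as insulin and of breakdown programmes that forkhead transcription factors switch on. A muscle biopsy also holds fat cells between the fibres, vessels, leukocytes and blood. A bulk library sums all of these, so fewer cells of a type and less RNA per cell cannot be told apart.

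The libraries held 4697169 to 52552057 reads on genes. The medians were 15574483 in CH and 14819596 in HF, and totals did not pass a permutation test between breeds (p = 0.0763, two-sided, 100000 resamples, adjusted p = 0.214 over 14 library measures). The share of reads that fell on no gene ran from 8.04% to 16.8% in CH and from 5.91% to 16.9% in HF. It moved with the first principal component of expression (41.7% of the variance, Spearman rho = -0.89 over the 38 libraries), while the third component (7.02%) had medians of 9.30 in CH and -8.21 in HF. One HF library, L-RFI replicate 6, stood apart in mapping, with 35.1% of its reads placed in several positions and 13.3% unmapped. Of the genes fixed as skeletal muscle markers 5 had a symbol and were tested, and their summed level was 68.9 to 593 counts per 1000000 (CPM) in CH and 56.8 to 832 CPM in HF. None of the 5 was absent from either breed, and CSRP3, the muscle LIM protein, had a lowest value of 42.7 CPM in CH and 44.6 CPM in HF.

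After removal of genes that reached 1 CPM in fewer than 50% of the libraries, 10695 genes were tested with RFI class as a covariate. A gene was called at an adjusted p under 0.1 and a fold change above 1.5. The test called 110 genes, 1.03% of those tested. Of these, 20 were higher in CH (0.187%) and 90 were higher in HF (0.842%). The fold change passed 2 for 9 of the 20 and for 29 of the 90. At an unadjusted p under 0.05 there were 1212 genes, where 535 would be expected by chance alone. The median log2 fold change over all tested genes was 0.01, which the scaling holds near 0, and 5121 of the 10695 had a negative value. An unadjusted p under 0.05 with a negative value was found for 803 genes and with a positive value for 409. Leaving out any 1 library left 55 to 150 calls. The count dropped by over 1.5 times without CH L-RFI replicate 5 (55 calls), CH H-RFI replicate 4 (60), HF H-RFI replicate 9 (64), CH L-RFI replicate 7 (65), CH L-RFI replicate 1 (68) or HF L-RFI replicate 5 (72). In every one of the 38 such fits 41 of the 110 genes were called.

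**Figure D1:**
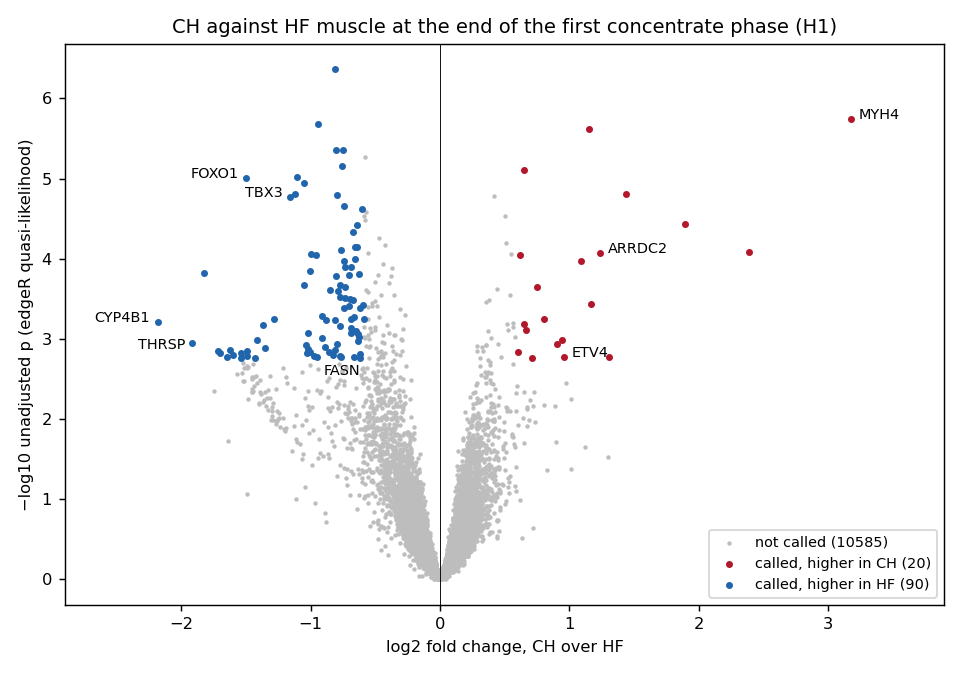
Each point is 1 of the 10695 genes tested in H1, with the log2 fold change of CH over HF on the x axis and −log10 of the unadjusted edgeR quasi-likelihood p on the y axis. Red points are the 20 genes called higher in CH, blue points the 90 called higher in HF, and MYH4 lies farthest to the right at 3.18.

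A symbol was at hand for 135 of the tested genes, which are genes that the study had listed for RFI in these same libraries and are no random sample of muscle genes. Of these, 21 were called, 3 higher in CH and 18 higher in HF, and the other 89 called genes carried only an identifier. Only these 135 genes could be matched to the gene lists below, so their share of calls is the one to set beside a list. The ranges of the breeds overlapped for all 21 named genes, and for all 21 the median lay on the side of the call.

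Among the called genes known by identifier alone, the 2 of smallest p in each direction are given here, and their breed ranges still overlapped. ENSBTAG00000000032 ranged from 0.358 to 1.87 CPM in CH (median 1.24) and from 1.499 to 5.99 CPM in HF (median 2.25), and 13 of the 20 HF libraries lay above every CH library. Its log2 fold change was -0.94 (SE 0.17, edgeR quasi-likelihood adjusted p = 0.00644). ENSBTAG00000019061 had medians of 1.60 CPM in CH and 2.77 CPM in HF, with a log2 fold change of -0.81 (SE 0.13, edgeR adjusted p = 0.00465), and all 20 HF libraries were above the CH median. In the other direction, ENSBTAG00000038112 ranged from 1.04 to 10.3 CPM in CH (median 5.99) and from 1.26 to 4.41 CPM in HF (median 2.27), with a log2 fold change of 1.15 (SE 0.21, edgeR adjusted p = 0.00644). ENSBTAG00000015109 had medians of 84.7 CPM in CH and 51.8 CPM in HF and a log2 fold change of 0.65 (SE 0.13, edgeR adjusted p = 0.00917). For both of these genes 12 of the 18 CH libraries exceeded all HF libraries.

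Of the 15 genes on the fast fibre list only 1, MYH4, could be tested, and of the 14 on the slow fibre list 4 could. Whether fibre type genes moved together therefore cannot be judged. MYH4, the fast IIb myosin heavy chain, ranged from 1.89 to 204 CPM in CH (median 4.53) and from 1.73 to 6.73 CPM in HF (median 3.22). The CH range was set by 5 libraries between 66.7 and 204 CPM, 4 of them H-RFI (replicates 1, 2, 4 and 9) and 1 L-RFI (replicate 2), whereas the other 13 lay between 1.89 and 7.81 CPM, within or next to the HF range. The log2 fold change of 3.18 (SE 0.57, edgeR adjusted p = 0.00644) thus rested on 5 of the 18 CH libraries. Without CH L-RFI replicate 2 it was 2.17, a fold of 4.50 in place of 9.05 (edgeR adjusted p = 0.0514). With limma voom and sample quality weights, which average on the log scale, it was 1.42 and was not called (adjusted p = 0.278). Of the 5 steers, that of H-RFI replicate 2 was biopsied again in H2 and again had a high MYH4 level, 90.5 CPM. High levels in H2 were not limited to CH, as 2 of 14 CH and 1 of 16 HF libraries exceeded 50 CPM, the HF one at 67.6 CPM. In ZG 0 of 18 CH and 0 of 19 HF libraries exceeded 50 CPM, and the highest CH value was 43.7 CPM. Myosin heavy chain genes are near copies of each other, and reads placed in several positions were not counted, so their levels are uncertain where paralogs share sequence.

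None of the 4 slow fibre genes tested was called. MYH6, a myosin heavy chain of heart and slow fibres, had medians of 299 CPM in CH and 370 CPM in HF (log2 fold change -0.14, SE 0.24, edgeR adjusted p = 0.98), and the sign of this value turned with the depth or the level of ALB as a covariate. CSRP3 had a log2 fold change of -0.40 (SE 0.32, edgeR adjusted p = 0.792). Of the developmental and junction list 5 genes were tested, all 5 had a positive value with a median of 0.62, against 0.01 over all genes, and none was called. CHRND, the delta subunit of the acetylcholine receptor, had 1.12 (SE 0.47, edgeR adjusted p = 0.304), with a positive difference in H-RFI steers (2.17) and a negative one in L-RFI steers (-0.48), though the interaction was not called (unadjusted p = 0.00209, edgeR adjusted p = 1.00). Without CH H-RFI replicate 9, which had the highest CHRND level at 30.8 CPM, the value of CHRND was 0.59 (edgeR adjusted p = 0.647). TNNT2, the troponin T of heart and embryonic muscle, had 1.01 (SE 0.35, edgeR adjusted p = 0.168). Its value was 0.31 without CH H-RFI replicate 2, which had the highest TNNT2 level at 22.4 CPM and was also one of the 5 libraries high in MYH4.

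Genes tied to muscle breakdown and growth restraint went both ways. FOXO1, a forkhead factor that turns on atrophy and fasting genes and is held in check by insulin signalling, was lower in CH, with 1.61 to 6.12 CPM (median 2.73) against 2.23 to 27.0 CPM in HF (median 5.68). Only 1 CH library lay above the HF median, and 7 HF libraries lay above all CH libraries. The log2 fold change was -1.50 (SE 0.30, edgeR adjusted p = 0.00944), with -1.48 in L-RFI and -1.53 in H-RFI steers. The call was kept whichever library was left out (edgeR adjusted p from 0.00467 to 0.0184).

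ARRDC2, an arrestin-domain protein that sits on the same list, was higher in CH. It ranged from 4.57 to 81.9 CPM in CH (median 18.3) and from 3.34 to 19.2 CPM in HF (median 7.75), so that 9 CH libraries exceeded every HF library. Its log2 fold change was 1.24 (SE 0.28, edgeR adjusted p = 0.0249). The difference was 1.91 in L-RFI and 0.70 in H-RFI steers, and the interaction with RFI class was not called (unadjusted p = 0.0336, edgeR adjusted p = 1.00). The list held 8 tested genes with a median of -0.10, and FOXO1 and ARRDC2 were its 2 called members.

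TBX3 and ETV4, transcription factors of the T-box and ETS families, also differed. TBX3 ranged from 0.448 to 6.03 CPM in CH (median 1.55) and from 1.26 to 9.64 CPM in HF (median 3.73), and its log2 fold change was -1.16 (SE 0.24, edgeR adjusted p = 0.0107). Its call was kept in all 38 fits that left out a library. ETV4 had medians of 5.27 CPM in CH and 2.59 CPM in HF, with a log2 fold change of 0.96 (SE 0.29, edgeR adjusted p = 0.0948). That call was lost in 26 of the 38 fits. METTL21C, a lysine methyltransferase found mainly in muscle, was lower in CH at -0.67 (SE 0.18, edgeR adjusted p = 0.0759), and 8 HF libraries lay above all CH libraries. It was the called member of the 3 growth and myogenesis genes tested.

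**Figure D2:**
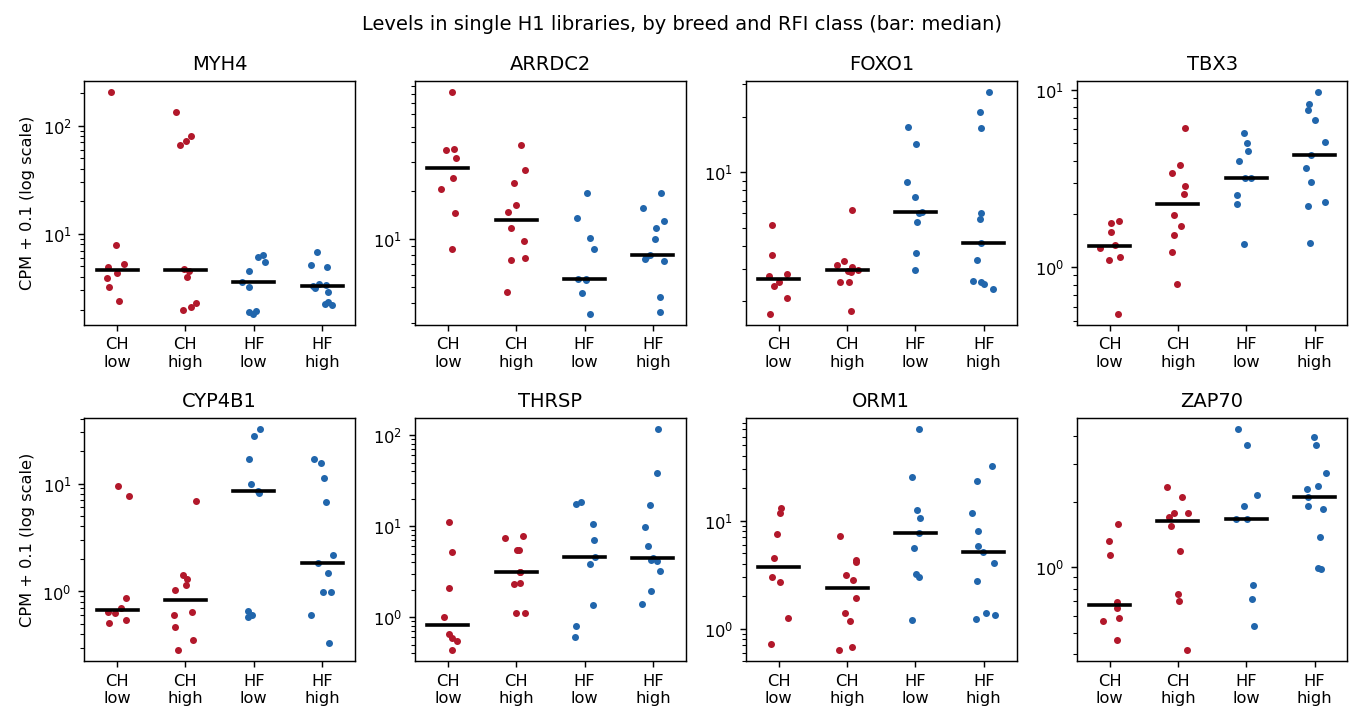
Each point is 1 H1 library, placed by breed and RFI class (low or high) on the x axis, and the y axis gives CPM plus 0.1 on a log scale, with a bar at each group's median. MYH4 splits the CH libraries into 5 above 66 CPM and 13 below 8 CPM, whereas FOXO1 and TBX3 sit lower across most CH libraries of both RFI classes.

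Genes of fat synthesis had negative values, with their highest levels in a few HF steers. The fatty acid synthesis list named 18 genes, of which only 3 had a symbol in the counts and were tested. All 3 had a negative value (median -1.52), and 2 were called. Higher in HF were 0.842% of all tested genes and 18 of the 135 with a symbol, by the same calls. THRSP, a regulator of lipid synthesis genes, ranged from 0.332 to 10.9 CPM in CH (median 2.23) and from 0.508 to 117 CPM in HF (median 4.40). Its log2 fold change was -1.92 (SE 0.55, edgeR adjusted p = 0.0881). FASN, the fatty acid synthase, ranged from 20.5 to 73.0 CPM in CH (median 40.5) and from 25.4 to 441 CPM in HF (median 56.9), with a log2 fold change of -0.95 (SE 0.28, edgeR adjusted p = 0.0948). The calls of THRSP and FASN were lost in 17 and 25 of the 38 fits that left out a library, and HF H-RFI replicate 8 held the highest value of both genes. Without it THRSP had -1.29 and FASN had -0.61, and neither was called (edgeR adjusted p = 0.202 and 0.209).

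None of the 3 adipocyte genes tested was called, though all 3 had a negative value with an unadjusted p under 0.05. FABP4, the fatty acid carrier of fat cells, had a median of 1.60 CPM in CH and 4.39 CPM in HF and a log2 fold change of -1.53 (SE 0.48, edgeR adjusted p = 0.12). TRARG1, which takes part in glucose transporter traffic in fat cells, had -1.34 (SE 0.46, edgeR adjusted p = 0.167). The summed level of the 3 genes was 1.32 to 18.8 CPM in CH (median 4.52) and 1.90 to 151 CPM in HF (median 9.58), with a ratio of geometric means of 0.542 (permutation p = 0.0624, adjusted p = 0.214). With that sum as a further covariate, chosen after seeing the data, THRSP had -0.40 and FASN -0.16, neither of them called (edgeR adjusted p = 0.51 and 0.80), and 59 genes were called in all.

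Among 5 genes of fatty acid uptake and oxidation 1 was called. ACSM1, an acyl-CoA synthetase for medium-chain fatty acids, ranged from 0.346 to 5.70 CPM in CH (median 2.03) and from 0.634 to 18.9 CPM in HF (median 4.03), with a log2 fold change of -1.41 (SE 0.40, edgeR adjusted p = 0.082). PCK2, the mitochondrial phosphoenolpyruvate carboxykinase, had -1.28 (SE 0.34, edgeR adjusted p = 0.0654). HF H-RFI replicate 8 was again the highest library for both, and without it ACSM1 had -1.23 and PCK2 -0.92, neither called. For ACSM1 the next were HF H-RFI replicate 5 (18.8 CPM) and HF L-RFI replicate 4 (15.9 CPM). These 2 libraries had the highest levels of ALB, the albumin gene, at 986 and 817 CPM, against 181 CPM in HF H-RFI replicate 8. Whether ACSM1 goes with ALB was not tested. Of 5 respiratory chain and energy genes none was called. CKB, the brain form of creatine kinase, had -1.04 (SE 0.39, edgeR adjusted p = 0.212), and NDUFA3, a subunit of complex I, had -0.16 (SE 0.28, edgeR adjusted p = 0.976).

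CYP4B1, a cytochrome P450 enzyme, was the called gene among 4 of the detoxification list. It ranged from 0.185 to 9.42 CPM in CH (median 0.571) and from 0.235 to 32.0 CPM in HF (median 4.35). Most CH libraries were near 1 CPM or below, 7 HF libraries exceeded all CH libraries, and the HF libraries themselves fell into low and high values. The log2 fold change was -2.18 (SE 0.59, edgeR adjusted p = 0.0683). Before scaling, 14 of 20 HF libraries and 5 of 18 CH libraries reached 1 CPM, so the gene passed the filter on low counts through the HF libraries and by the narrowest margin, and in 19 of the 38 fits that left out a library it was no longer tested. EML6, a microtubule-binding protein, had -0.81 (SE 0.22, edgeR adjusted p = 0.0661), with medians of 0.803 CPM in CH and 1.61 CPM in HF. Of the 90 genes called higher in HF, 18 were under 1 CPM in most CH libraries, among them CYP4B1, EML6, S100A12 and GIMAP8, and passed the filter through the group in which they were high. Of the 20 called higher in CH, 3 passed in this way.

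The leukocyte genes that were called were all lower in CH. All 8 lymphoid markers tested had a negative value (median -0.70), and 3 were called. ZAP70, the T cell receptor kinase, had -0.91 (SE 0.26, edgeR adjusted p = 0.0815). PTPRC, the pan-leukocyte surface phosphatase CD45, had -0.97 (SE 0.29, edgeR adjusted p = 0.0948), and GIMAP8, a GTPase of immune cells, had -0.80 (SE 0.23, edgeR adjusted p = 0.0882). Of all 10695 genes tested, 5121 had a negative value and 0.842% were called higher in HF. Of the 135 tested genes with a symbol, 18 were called higher in HF. The summed lymphoid level was 3.64 to 21.3 CPM in CH (median 11.5) and 8.62 to 46.2 CPM in HF (median 14.1). The ranges overlapped, and the ratio of geometric means, CH over HF, was 0.613 (permutation p = 0.00262, adjusted p = 0.0367 over the 14 library measures). The calls of ZAP70, PTPRC and GIMAP8 were lost in 14, 24 and 21 of the 38 fits that left out a library. Before scaling, GIMAP8 reached 1 CPM in 7 of 18 CH and 13 of 20 HF libraries. GIMAP8 thus passed the filter through the HF libraries, and it is part of the summed level.

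Of the 9 myeloid markers tested 8 had a negative value (median of the 9, -0.80) and 3 were called. The share called higher in HF was 0.842% over all tested genes and 18 of 135 over those with a symbol. S100A12, a calcium-binding protein of neutrophils, had -1.37 (SE 0.37, edgeR adjusted p = 0.0704). LCP1, the actin-bundling plastin of leukocytes, had -0.86 (SE 0.25, edgeR adjusted p = 0.0935), and MYO1F, a leukocyte myosin, had -0.83 (SE 0.24, edgeR adjusted p = 0.0948). HF L-RFI replicate 4 had the highest level of PTPRC (13.6 CPM), S100A12 (15.4 CPM), LCP1 (15.7 CPM) and MYO1F (6.11 CPM), and without it S100A12 had -0.93 and PTPRC -0.81, neither called (edgeR adjusted p = 0.151 and 0.174). The calls of S100A12, LCP1 and MYO1F were lost in 4, 24 and 25 of the 38 fits. Over the 17 alternatives other than leaving out a library, MYO1F ran from -1.19 to -0.07 and its call was lost in 8. LCP1 ran from -1.11 to -0.70 there, with the call lost in 6. Before scaling, S100A12 reached 1 CPM in 5 of 18 CH and 16 of 20 HF libraries. S100A12 thus passed the filter through the HF libraries, and it is part of the summed level. The summed myeloid level was 11.02 to 51.9 CPM in CH (median 19.3) and 17.9 to 87.7 CPM in HF (median 29.1), with a ratio of geometric means of 0.685 (permutation p = 0.0058, adjusted p = 0.0406).

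Transcripts of plasma proteins, which the liver makes, were among the genes lower in CH. All 10 tested had a negative value (range -1.65 to -1.11) and an unadjusted p under 0.05, and 2 were called. Of all 10695 genes tested, 803 had such a p with a negative value and 90 were called higher in HF. Only the 135 tested genes with a symbol could be matched to a list, and 18 of these were called higher in HF. ORM1, an acute phase glycoprotein, ranged from 0.531 to 13.0 CPM in CH (median 2.82) and from 1.11 to 70.8 CPM in HF (median 5.61), with a log2 fold change of -1.62 (SE 0.47, edgeR adjusted p = 0.0935). AHSG, fetuin-A, had -1.65 (SE 0.49, edgeR adjusted p = 0.0948). Their calls were lost in 24 and 27 of the 38 fits that left out a library, and with the level of ALB, the albumin gene, as a covariate they had -0.37 and -0.05. The summed level of the 10 genes spanned 26.8 to 402 CPM in CH and 33.8 to 1568 CPM in HF, with a ratio of geometric means of 0.53 (permutation p = 0.0681, adjusted p = 0.214). These lists overlap in their source, since all named genes came from the study's own RFI comparisons. The part of leukocytes, fat cells or plasma protein transcripts in the other breed differences was not tested. ALB and the adipocyte genes were measured in the same libraries and had negative values themselves, so their use as covariates cannot separate it. No leukocyte level was used as a covariate.

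Several lists held no called gene. Of 21 immediate early genes tested, 14 had a negative and 7 a positive value (median -0.11). NFKBIA, the inhibitor of NF-kappaB, had 0.59 (SE 0.20, edgeR adjusted p = 0.153), and its difference was 1.27 in L-RFI and 0.02 in H-RFI steers (interaction unadjusted p = 8.07e-04, edgeR adjusted p = 1.00). All 6 interferon-induced genes had a negative value (median -0.48), and those with the smallest p were IFIT3 at -0.52 (SE 0.21, edgeR adjusted p = 0.284) and MX1 at -0.52 (SE 0.29, edgeR adjusted p = 0.553). Of 6 extracellular matrix genes, ADAMTS8, a metalloprotease, had 1.30 (SE 0.58, edgeR adjusted p = 0.351) and NTN4, a netrin of the basement membrane, had -0.51 (SE 0.22, edgeR adjusted p = 0.32).

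The remaining lists had 1 or 2 tested genes each. SOX18, an endothelial transcription factor, had -0.69 (SE 0.33, edgeR adjusted p = 0.416), and SYN1, a synaptic vesicle protein, had 0.45 (SE 0.33, edgeR adjusted p = 0.739). The fibroblast markers CD248 and SSC5D had -0.16 and 0.12, with SE 0.30 and 0.24. HLA-DQA2, an antigen-presenting molecule, had -0.28 (SE 0.40). The ribosomal protein genes RPL12 and RPL38 had 0.63 and 0.14, with SE 0.60 and 0.25, and none of these genes was called.

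**Figure D3:**
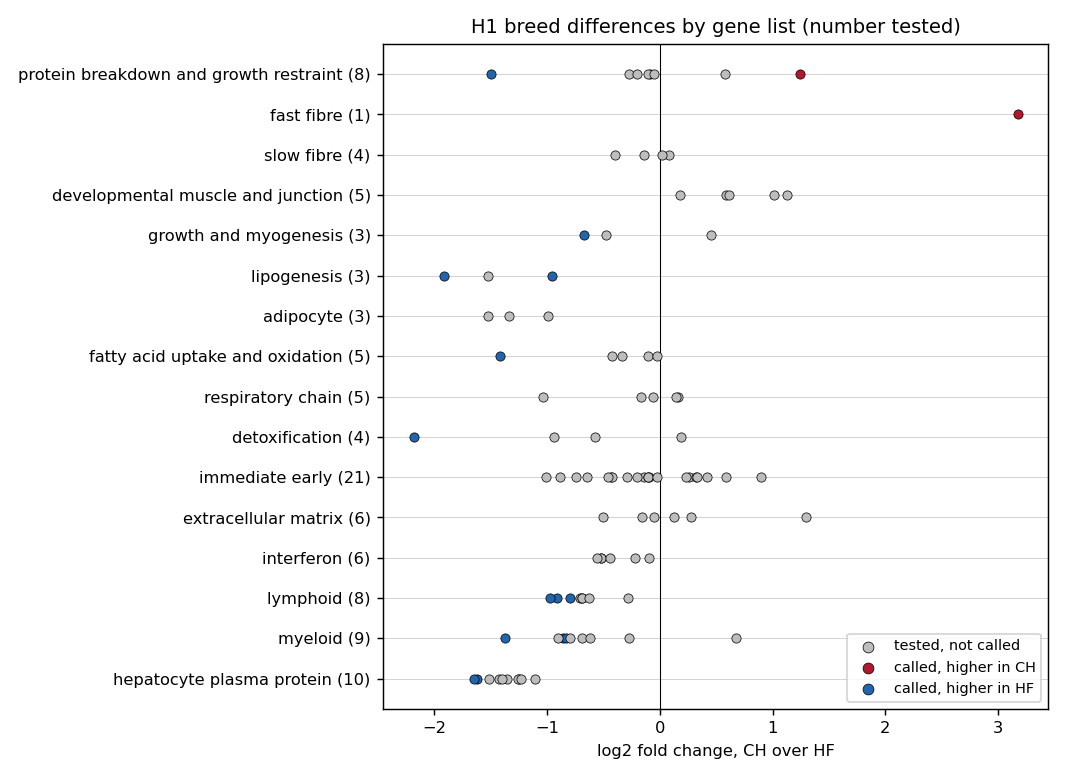
Each point is 1 tested gene with a symbol, placed by its log2 fold change of CH over HF in H1 on the x axis and by its gene list on the y axis, with the number of genes tested in brackets. The 8 lymphoid and 10 plasma protein genes all lie to the left of 0, and the blue points are the members called higher in HF, the red ones those called higher in CH.

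Whether the breed difference depended on RFI class was tested by the interaction of both. The edgeR quasi-likelihood test called 0 of 10695 genes (180 at an unadjusted p under 0.05, and 0 by limma voom with sample quality weights). With the classes fitted apart the same edgeR test called 0 genes in each, with 576 of 10508 in L-RFI and 786 of 10724 in H-RFI at an unadjusted p under 0.05. DESeq2 called 26 and 38 genes there, and limma voom with sample quality weights 8 and 7.

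The later phases show whether the genes called in H1 differed in the same way in other libraries of these herds. The same edgeR test called 1 of 10194 genes in ZG and 1 of 9966 in H2, and 7.5% and 5.77% of the genes had an unadjusted p under 0.05 there. These counts depended on the tool, so the number of calls does not rank the phases. DESeq2 called 197 genes in H1, 142 in ZG and 42 in H2, and limma voom with sample quality weights called 146 in H1 (68 of them among the 110), 965 in ZG and 289 in H2. The phases share some steers with H1, 5 and 6 of CH and 6 and 5 of HF in ZG and H2, but no library. Of the 20 genes higher in CH in H1, 18 had the same direction in ZG and 16 in H2, and 8 and 6 also had an unadjusted p under 0.05, against 4.31% and 2.40% of all genes tested in that direction. Of the 90 genes higher in HF, 73 could be tested in ZG, where 50 had the same direction and 19 an unadjusted p under 0.05 in it (3.20% of all genes). In H2, 69 could be tested, 62 had the same direction and 23 such a p (3.37% of all genes). In ZG 3 of the 73 had such a p in the opposite direction.

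The named genes differed in how their values looked from phase to phase. THRSP was at -1.92 (SE 0.55), -1.47 (SE 0.77) and -2.18 (SE 0.66) in H1, ZG and H2, and CYP4B1 was at -2.18 (SE 0.59), -1.28 (SE 0.64) and -2.36 (SE 0.68), so both were negative throughout. FASN was negative throughout as well, at -0.95, -0.88 and -0.72. MYH4 was at 3.18 (SE 0.57) in H1, 1.26 (SE 0.35) in ZG and 1.46 (SE 0.82) in H2. FOXO1 went from -1.50 in H1 to -0.44 (SE 0.28) in ZG and 0.01 (SE 0.35) in H2, and ARRDC2 from 1.24 to 0.10 (SE 0.27) and -0.06 (SE 0.39). TBX3 went from -1.16 in H1 to 0.07 (SE 0.35) in ZG and was below the filter in H2. The plasma protein genes ORM1 and AHSG were negative in H1 and H2 but at 1.203 (SE 1.28) and 1.19 (SE 1.00) in ZG. ACSM1 likewise was at -1.41 in H1 and -1.12 (SE 0.33) in H2 but at 1.02 (SE 1.08) in ZG.

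The difference between phases was tested in all 105 libraries of at least 1000000 counts with limma voom and the steer as a random effect. The breed difference in H1 against the mean of ZG and H2 was called for 0 of 10287 genes, with 231 at an unadjusted p under 0.05, and 0 were called by the edgeR quasi-likelihood test. FOXO1 had a difference of -1.09 (unadjusted p = 0.00148) and ARRDC2 one of 1.05 (unadjusted p = 0.00501), and for both the limma adjusted p was 1.00. TBX3 had a difference of -0.996 (limma unadjusted p = 0.00724) and was not called either. The breed differences of H1 are thus not shown to be particular to that phase.

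**Figure D4:**
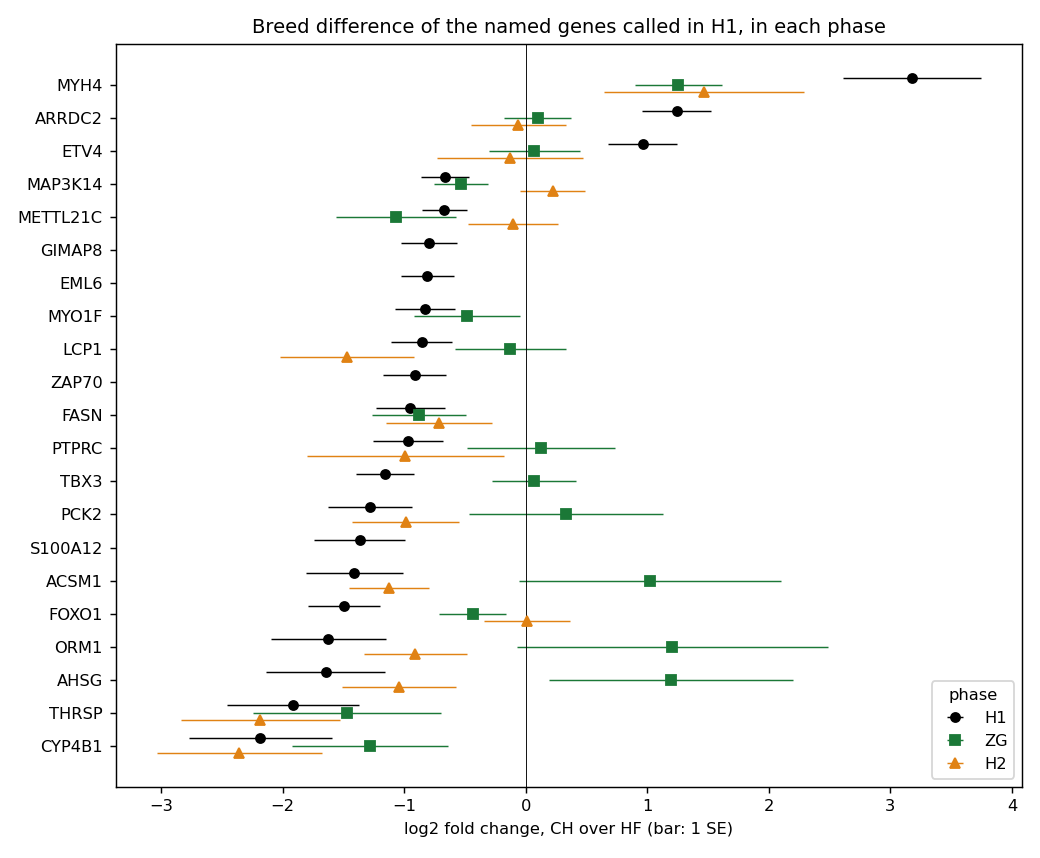
Points give the log2 fold change of CH over HF of the 21 named genes called in H1, with bars of 1 SE, in H1 (circles), ZG (squares) and H2 (triangles), and a gene below the filter of a phase has no point there. THRSP, CYP4B1 and FASN lie left of 0 in all 3 phases, whereas FOXO1 and ARRDC2 lie near 0 in H2.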

How the data were processed

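The deposited values were raw counts per gene and library, which the authors made with STAR (2.5.1 in the submitters' processing notes) from single-end reads trimmed with cutadapt and checked with FastQC (0.11.5). The study's methods give ARS-UCD1.2 as the genome and the submitters' processing notes give UMD3.1, so no coordinates or sequences are printed. Reverse-strand counts were used, as the library kit is stranded. They held 97.6% to 99.5% of the stranded counts on genes. Each file gave 24616 genes, and the rows of reads on no gene, several genes or several positions were left out of library sizes. Pairs of libraries with identical counts numbered 0.

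Genes that reached 1 CPM in 50% or more of the libraries were kept and scaled with TMM factors, as in the study. CH and HF were compared with edgeR 4.0.16 (glmQLFit and glmQLFTest, RFI class as covariate) in R 4.3.3, with Benjamini-Hochberg adjustment over all genes tested. Fold changes are CH over HF on the log2 scale, and standard errors were derived from the F statistic. Values per library are TMM-scaled CPM, which are not comparable between genes. Phases were compared with limma 3.58.1 (voom, duplicateCorrelation by steer, consensus correlation 0.168). Alternatives were DESeq2 1.42.0, edgeR's exact test, voom with quality weights, other filters, scalings, covariates and thresholds, and leaving out each library. Simulated data served to test the main fit, DESeq2, the exact test, voom with quality weights and an alternative scaling. They also served for the interaction with RFI class and the limma comparison of phases, but not for the other alternatives. Library totals were compared by permutation (scipy 1.17.1), as were sums over marker genes, which share genes with the gene tests and are no independent support.

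Symbols came from the study's own gene table, which pairs 159 with an identifier, 151 of them in the counts. Other genes keep their identifier. The text names, among called genes with a symbol, the 12 of smallest adjusted p and the 6 of largest fold in each direction, the called members of each list (up to 6, or the 2 of smallest p where none was called), and 2 identifiers in each direction. One gene that this rule names is not reported here. The gene lists and the comparison were chosen with earlier results of these data known. Each library came from a different steer, so p-values measure the spread between steers.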

Additional observations from a re-analysis of the deposited data

Results flagged for a closer look

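Within single groups of 8 to 10 libraries, some values lay far from the rest by Dixon's gap ratio on log2(CPM + 0.1), tested for the called genes with a symbol and for the library total. HF H-RFI, with 11 libraries, exceeded the largest group size covered, 10, and was not tested. The high values of its replicate 8, such as 117 CPM of THRSP, were therefore not judged. The other groups made 66 tests, of which 6 passed the critical value, where chance alone passes about 1 in 20. In CH L-RFI, replicate 2 had 204 CPM of MYH4 with the next library at 7.81 (ratio 0.733), and the same library had the highest total, 39675940 reads against 15358277 in the next (0.607). In CH L-RFI, replicate 8 had the lowest TBX3, 0.448 CPM against 1.00 (0.584). In CH H-RFI, replicate 2 had the highest FOXO1, 6.12 CPM against 3.18 (0.508), and replicate 5 the highest CYP4B1, 6.74 CPM against 1.31 (0.497). In HF L-RFI, replicate 4 had the highest LCP1, 15.7 CPM against 5.79 (0.563). No difference of the breed effect between RFI classes or phases passed its test for the called genes with a symbol, where tested. EML6, S100A12, ZAP70 and GIMAP8 were below the filter of the fit over all phases, so the test between phases did not cover them.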

How the results depend on the processing

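The count of calls (total, higher in CH, higher in HF) was 197, 27 and 170 with DESeq2, 172, 29 and 143 with edgeR's exact test, 48, 10 and 38 at an adjusted p under 0.05, and 199, 45 and 154 with no fold limit. With ALB as covariate it was 70, 16 and 54. Without a filter on low counts, 33 were higher in CH. Covariates chosen after seeing the data gave 233, 33 and 200 (share of reads on no gene) and 59, 13 and 46 (adipocyte genes). Fitted within L-RFI or H-RFI steers alone, edgeR's quasi-likelihood test called 0, from fewer libraries. Leaving out 1 library gave 55 to 150 calls, 13 to 24 of them higher in CH and 41 to 134 higher in HF. In ZG, voom with quality weights, DESeq2 and the exact test, all chosen after seeing the data, called 965, 142 and 114 genes against 1, and in H2 they called 289, 42 and 13 against 1. The causes of these shifts were not tested. No call changed in the test between phases without the replicate block by steer (0 genes). No paired analysis was possible within H1 because the breeds share no steer and each steer has 1 library there.

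Uncalled genes changed sign as follows. In L-RFI steers alone CSRP3 had 0.0744, CHRND -0.48, RPL38 -0.49 and SYN1 -0.0186, and in H-RFI steers alone MYH6 had 0.20, NDUFA3 0.40, HLA-DQA2 0.34 and CD248 0.11. With depth as covariate MYH6 had 0.0206, NDUFA3 0.0213 and CD248 0.18, with ALB MYH6 had 0.0477 and NDUFA3 0.0496, and with adipocyte genes CD248 had 0.0793. Breed is tied to age and weight, libraries of low depth leave genes near 1 CPM imprecise, and most called genes have no name here.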
